A study of Mus musculus with 7 samples.

Results

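The 34 genes described here encode proteins of the mouse sperm tail that surround, assemble or belong to the axoneme. The parts around it are the fibrous sheath, the outer dense fibres, the mitochondrial sheath of the midpiece and the annulus. The genes were chosen by name, and all 34 were found among the 19719 genes measured in testis RNA. By their known place in the tail, 11 were taken as fibrous sheath genes, 5 as outer dense fibre genes, 11 as midpiece and annulus genes and 7 as genes of the axoneme or of tail assembly. The RNA came from total testis of 3 fl/Y and 4 cKO/Y Sox2-Cre male mice of the C57BL/6 strain at 8 weeks of age. The fl/Y males, which the labels call WT, carried a floxed allele of *Rlim*, an X-linked gene for a ubiquitin ligase that is also known as Rnf12. In the cKO/Y Sox2-Cre males, labelled Rlim-KO, this allele was deleted by a Cre driven from *Sox2*, which is active in the early embryo, so that the deletion was systemic and not limited to germ cells. The males of both genotypes were littermates, and the table has 1 library for each sample. The study calls its RNA-seq samples biological replicates but does not state that each was a separate animal. The p-values therefore measure only the spread between these libraries. The comparison asks whether the RNA of tail genes differed between testes with and without *Rlim*. The labels also name 2 batches without saying what they are, with replicates 1 and 2 of each genotype in batch 2, while batch 1 held fl/Y replicate 3 with cKO/Y Sox2-Cre replicates 3 and 4. The genotypes are called control and mutant from here on.

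The tail is built in the haploid spermatids. Outer dense fibres run along the axoneme through the midpiece and most of the principal piece, mitochondria wrap around them in the midpiece, and a septin ring, the annulus, closes the midpiece. Beyond the annulus the fibrous sheath takes the place of the mitochondria, where its A-kinase anchoring proteins (AKAPs) hold protein kinase A and glycolytic enzymes near the axoneme.

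Values are given in CPM, that is reads per unit of library size, as scaled by the authors. Between 2822168 and 8633399 reads fell in listed genes per library, so that a gene with no read may have been at up to 0.301 to 0.945 CPM (3 reads), by counting error alone. The fewest reads of any of the 34 genes in any library were 28, for *Akap14*. Mitochondrial RNA took 5.88% to 9.31% of reads in batch 1 and 12.7% to 21.4% in batch 2. Markers of spermatocytes, round spermatids and elongating spermatids were present in every library. Of 8 epididymis markers only *Rnase10* was in the table, at 0 to 2.83 CPM. *Rlim* was at 99.5, 70.7 and 61.5 CPM in control replicates 1 to 3 and at 32.6, 35.7, 21.7 and 20.7 CPM in mutant replicates 1 to 4. These groups did not overlap, and the log2 fold change was -1.38 (standard error 0.16, adjusted p = 0.0087 from limma), although this call was lost in 7 of 22 other settings, among them the fit without control replicate 1, 3 or mutant replicate 4, with adjusted p from 5.4e-10 to 1.00. In RNA of whole testis, fewer cells of a type and less RNA per cell cannot be told apart, which holds for all values that follow.

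To show what lies in front of the genes whose RNA is described most closely, the 250 bases before the start of 5 of them are given from RefSeq annotation of GRCm38.p6, 5′ to 3′ on the strand of the gene. *Akap3*, *Akap4* and *Fscb* are shown as genes of the fibrous sheath, and *Odf2* and *Fsip2* as genes that differed between the batches in opposite directions. Capitals mark TGACG, the core of the cAMP response element, or TGATGTCA, a variant of the full element TGACGTCA, on either strand, so that CGTCA is the core read from the other strand. None of these 5 windows overlaps an annotated exon, and that of *Odf2* lies inside the span of the gene, before one of its later starts.
Akap3, chr6:126852848-126853097, plus strand: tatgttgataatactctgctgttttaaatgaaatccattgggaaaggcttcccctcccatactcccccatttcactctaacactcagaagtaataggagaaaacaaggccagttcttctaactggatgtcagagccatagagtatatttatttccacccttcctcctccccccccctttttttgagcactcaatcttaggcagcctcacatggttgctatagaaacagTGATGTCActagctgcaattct
Akap4, chrX:7067265-7067514, plus strand: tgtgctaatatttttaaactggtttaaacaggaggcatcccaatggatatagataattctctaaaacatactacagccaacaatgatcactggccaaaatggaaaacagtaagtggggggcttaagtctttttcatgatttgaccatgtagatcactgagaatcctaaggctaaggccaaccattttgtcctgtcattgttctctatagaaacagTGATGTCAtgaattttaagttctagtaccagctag
Fscb, chr12:64474899-64475148, minus strand: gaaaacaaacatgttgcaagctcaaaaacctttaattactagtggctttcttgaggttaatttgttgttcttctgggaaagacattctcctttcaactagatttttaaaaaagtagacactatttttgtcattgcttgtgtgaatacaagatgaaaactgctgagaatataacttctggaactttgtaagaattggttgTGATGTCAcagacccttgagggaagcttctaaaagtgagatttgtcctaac
Odf2, chr2:29889470-29889719, plus strand: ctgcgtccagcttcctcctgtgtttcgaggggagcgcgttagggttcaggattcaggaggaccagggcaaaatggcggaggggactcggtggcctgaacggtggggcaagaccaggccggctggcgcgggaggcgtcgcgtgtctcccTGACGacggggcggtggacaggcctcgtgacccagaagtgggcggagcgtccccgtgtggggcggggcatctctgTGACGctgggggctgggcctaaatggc
Fsip2, chr2:82943384-82943633, plus strand: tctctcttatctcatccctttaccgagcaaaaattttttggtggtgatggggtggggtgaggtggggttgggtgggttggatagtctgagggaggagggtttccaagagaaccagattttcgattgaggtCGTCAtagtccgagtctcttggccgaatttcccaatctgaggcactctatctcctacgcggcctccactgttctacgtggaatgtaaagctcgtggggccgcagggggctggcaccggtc

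Promoter sequence was at hand for 24 of the 34 genes, in 36 windows, since a gene may have several starts. The core TGACG lay in 7 of these 36 windows (19.4%), from the 6 genes *Fsip2*, *Meig1*, *Odf2*, *Spag4*, *Spata18* and *Tcp11*, and in 17.8% of all 32817 windows of the same length. The matching windows of *Odf2* overlap and hold the same sites, and its other windows hold none. The full element TGACGTCA, which contains the core, lay in 1 of the 36 windows, that of *Spag4*, and in 1.55% of all windows. The variant TGATGTCA was searched after the sequences had been seen, and it lay in the windows of *Akap3*, *Akap4* and *Fscb*, 3 of 36 (8.33%) against 2.93% of all windows. In *Akap3* and *Akap4*, whose proteins are the paired anchoring proteins of the fibrous sheath, the variant ends a run of 20 bases that both share, CTATAGAAACAGTGATGTCA. It starts 34 bases before the start of *Akap3* and 47 bases before that of *Akap4*, and no other of the 32817 windows held it. A match is a stretch of letters, and no binding was measured here.

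The 34 genes ranged from 5.46 to 977 CPM per kb in the control testes. Per kb of exon, with all annotated exons of a gene counted, *Meig1*, which is needed for assembly of the tail, had 977 CPM per kb in controls, the mean of 3 libraries. A gene whose transcripts in testis use only part of these exons stands too low on this scale, and which exons were used was not tested. *Akap4*, the main protein of the fibrous sheath, followed with 775 CPM per kb, and *Spa17* and *Ropn1l*, which carry the docking domain that binds AKAPs, with 600 and 543 CPM per kb. *Odf1*, a small protein of the outer dense fibres and the connecting piece, had 432 CPM per kb, and *Smcp*, of the mitochondrial capsule, 367 CPM per kb. The lowest were *Sept7*, a septin that many tissues use, with 5.46 CPM per kb over 11.6 kb of annotated exon, *Akap14* with 6.05 and *Armc2*, needed for the axoneme, with 6.63 CPM per kb. Neighbours in this order, such as *Spa17* and *Ropn1l* or *Tcp11* (304 CPM per kb) and *Akap3* (296 CPM per kb), differed by less than the spread of their libraries.

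Without regard to length, the reads of these genes came mostly from a few of them. *Fsip2*, a fibrous sheath protein with a very long transcript of 21.1 kb, was at 2668 ± 585 CPM (SD, n = 3) in control and 2309 ± 1058 CPM (SD, n = 4) in mutant testes. *Odf2*, the main coiled-coil protein of the outer dense fibres, was at 2380 ± 999 and 2700 ± 920 CPM. *Akap4* was at 2346 ± 296 and 2097 ± 384 CPM. By their control means, 28 of the 34 genes lay above 90% of the 19400 genes that were tested. At 100 CPM or more in every library were 24 of the 34. The lowest was *Akap14*, at 10.8 ± 5.16 and 10.2 ± 3.36 CPM. Together the 34 genes made up 17425, 18272 and 18662 CPM in control replicates 1 to 3 and 15204, 18574, 17954 and 18936 CPM in mutant replicates 1 to 4. The range of the mutants thus enclosed that of the controls. The plot of CPM by library shows these levels for every gene.

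**Figure D1:**
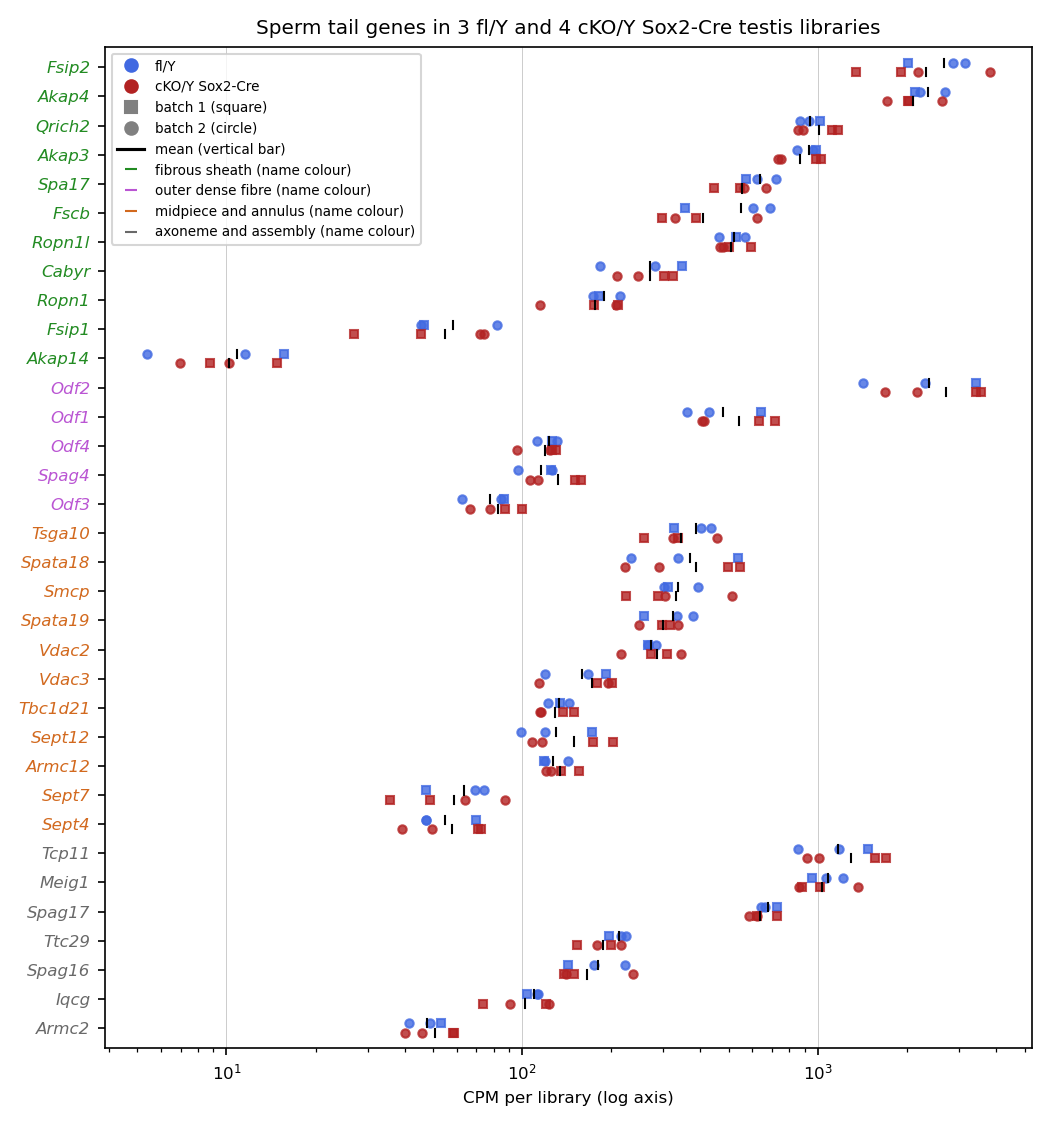
CPM of the 34 genes (vertical axis, by place in the tail, each place ordered by the fl/Y mean) on a log axis, with 1 point for each library of fl/Y (blue, upper) and cKO/Y Sox2-Cre (red, lower), squares for batch 1, circles for batch 2 and a black bar for the mean of each genotype. The points of both genotypes overlap for all 34 genes, from *Akap14* near 10.5 CPM to *Odf2* near 2563 CPM as means of all libraries.

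No difference between the genotypes was detected in the tail genes. Of the 34 genes, 0 were past an adjusted p of 0.05, where 0.00515% of all genes were (1 of 19400, *Rlim*), and 0 were past an unadjusted p of 0.05, where 2.58% were (501 genes). By edgeR's quasi-likelihood and likelihood ratio tests and by DESeq2 on recovered reads, 0 of the 34 passed either limit. The control and mutant libraries did not overlap for 0 of the 34 genes, against 2.92% of all genes. Log2 fold changes lay between -0.33 for *Fscb* and 0.12 for *Spag4*, with 22 genes below and 12 above 0 (9942 and 9458 of all 19400 genes), a median of -0.058 and a median of all genes of -0.0055. Without mutant replicate 1, where the ribosomal RNA gene CT010467.1 took 19.3% of reads and the tail genes had a median deviation of -0.19 on the log2 scale, 17 genes lay below and 17 above 0 with a median of 0.0029. Without control replicate 2 there were 18 and 16. A p that misses the limit does not show equal levels, so the 95% intervals of the differences are of interest. They lay within a change of 1.5-fold in either direction for 31 of the 34 genes (38.9% of all genes) and within 2-fold for all 34 (77.0% of all genes). The 3 genes with wider intervals were *Fscb*, *Fsip2* and *Akap14*, all of the fibrous sheath. In the fit the variance followed the level of the genes, and 28 of the 34 lay above 90% of genes in controls. The 38.9% and 77.0% therefore cover genes of unlike level, and do not show that tail genes were steadier than others.

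**Figure D2:**
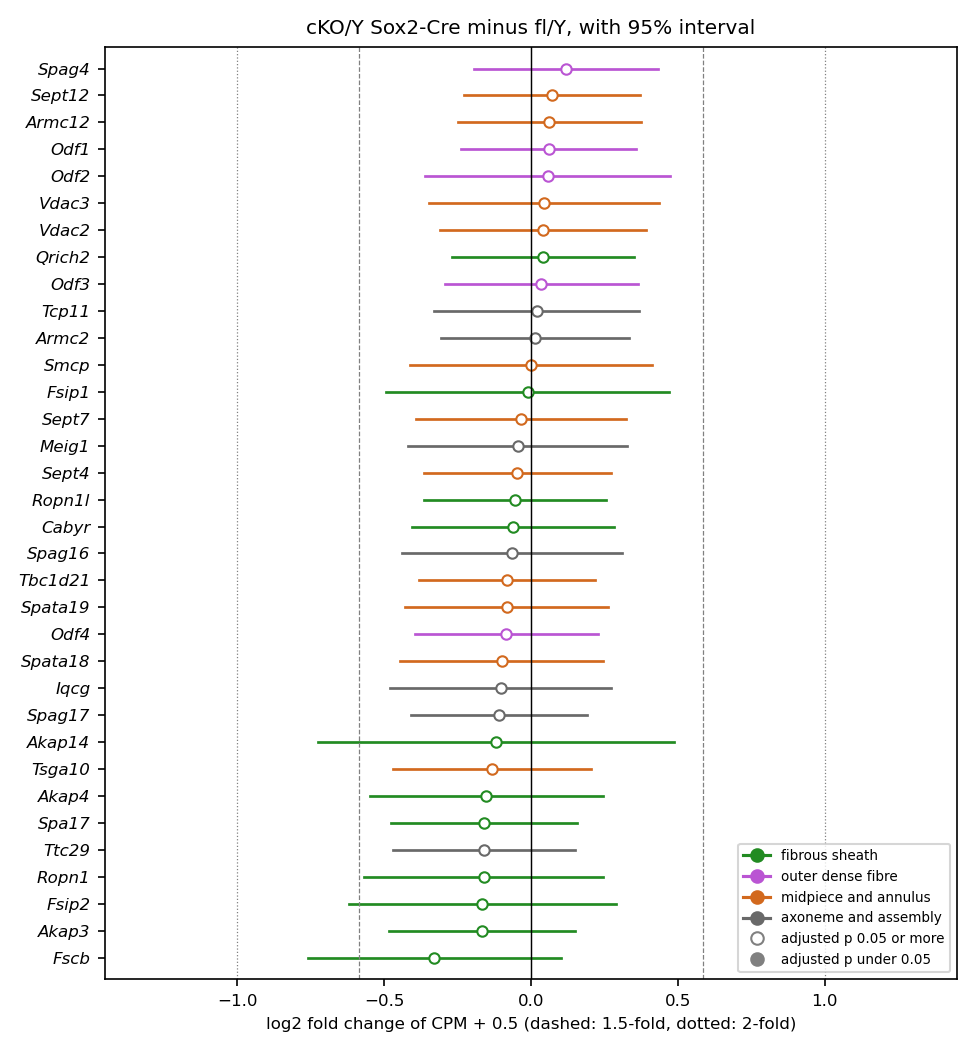
Log2 fold change (cKO/Y Sox2-Cre minus fl/Y, horizontal axis) of the 34 genes with its 95% interval from limma, coloured by place in the tail, with dashed lines at 1.5-fold and dotted lines at 2-fold. All points are open, since no adjusted p was under 0.05, and every interval crosses 0, from *Fscb* at -0.33 to *Spag4* at 0.12.

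Of the 11 fibrous sheath genes, 10 lay below 0 (9942 of all 19400 genes), with a median log2 fold change of -0.15. This rested in part on single libraries, since without mutant replicate 1 there were 7 of 11 below 0 with a median of -0.054, without mutant replicate 3 there were 8 with a median of -0.063, and without control replicate 2 there were 7 with a median of -0.12. *Fscb*, whose protein binds CABYR in the sheath, had the smallest p of all 34 genes. It lies on chr12:64471330-64474690 and was at 689, 600 and 354 CPM in controls and at 329, 624, 297 and 387 CPM in mutant testes. The lowest control lay among the mutants, and the log2 fold change was -0.33 (standard error 0.20, 95% interval -0.76 to 0.10, unadjusted p = 0.125 and adjusted p = 1.00 from limma). Batch 2 alone gave -0.51 and batch 1 alone -0.064. Without mutant replicate 1 it was -0.054. Without mutant replicate 2 it was -0.51, with an unadjusted p of 0.0128 and an adjusted p of 0.791 from limma, the lowest adjusted p in 22 other settings.

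*Akap4*, on chrX:7067519-7078609, was at 2685, 2219 and 2135 CPM in controls and at 1709, 2627, 2015 and 2037 CPM in mutant testes. Mutant replicate 2 lay among the controls and the other mutants below them, and the log2 fold change was -0.15 with a 95% interval from -0.55 to 0.24. Without mutant replicate 1, the lowest library, it was 0.015. *Akap3*, which is built into the sheath before AKAP4, was at 851, 965 and 987 CPM and at 748, 732, 1025 and 981 CPM, with a log2 fold change of -0.17 and an interval from -0.48 to 0.15. The mutants of batch 1 were level with the controls and those of batch 2 lower, with 0.022 within batch 1 and -0.29 within batch 2. *Fsip2* had -0.17 (interval -0.62 to 0.29), *Spa17* -0.16 (-0.48 to 0.16) and *Ropn1*, a ropporin that binds AKAP3, -0.16 (-0.57 to 0.25). Without mutant replicate 1, *Fsip2* had 0.0098 and *Ropn1* 0.089. *Qrich2*, which is needed for a stable tail, was the one sheath gene above 0, at 0.041. *Ropn1l*, *Cabyr* and *Fsip1* lay at -0.054, -0.062 and -0.011. The summed level of the 11 genes was 8195 to 9798 CPM in control and 7298 to 10312 CPM in mutant testes.

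Of the 5 outer dense fibre genes, 4 lay above 0 (9458 of all 19400 genes), with a median log2 fold change of 0.057. Without control replicate 1 only *Spag4* did (0.056) and the median was -0.061, and without control replicate 3, the one control of batch 1, 2 did with a median of -0.0070. The sign was the same in both batches for 2 of the 5 genes (9393 of all 19400 genes). *Odf2* had 0.057 (95% interval -0.36 to 0.47) and *Odf1* 0.060 (-0.24 to 0.36). *Spag4*, a SUN domain protein that binds ODF1, was at 96.7, 126 and 125 CPM in controls and at 106, 113, 158 and 150 CPM in mutant testes. Its log2 fold change of 0.12 was 0.31 within batch 1 and -0.0070 within batch 2. *Odf3*, of the outer dense fibres and the microtubules, had 0.035 and *Odf4*, a testis membrane protein, -0.084. The intervals of all 5 genes lay within 1.5-fold.

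Of the 11 midpiece and annulus genes, 5 lay above and 6 below 0, with a median log2 fold change of -0.034 that was 0.051 without mutant replicate 1 and 0.0084 without control replicate 2. Among the genes of the mitochondrial sheath, *Armc12* and *Tbc1d21*, both needed to arrange the mitochondria, had 0.063 and -0.082. *Smcp* had 0.00061 and was at 302, 392 and 311 CPM in control and 511, 303, 288 and 225 CPM in mutant testes, so that the mutants spread more widely than the controls. *Spata19*, of the sperm mitochondria, had -0.082, *Tsga10*, of the midpiece, -0.13, and *Spata18*, known for a role in the quality control of mitochondria, -0.10. The channels of the outer mitochondrial membrane *Vdac2* and *Vdac3* had 0.041 and 0.045. The annulus septins *Sept12*, *Sept4* and *Sept7* had 0.072, -0.046 and -0.034. The 7 genes of the axoneme and of assembly, *Tcp11*, *Meig1*, *Spag16*, *Spag17*, *Iqcg*, *Ttc29* and *Armc2*, lay between -0.16 for *Ttc29* and 0.019 for *Tcp11*. *Spag17*, of the central pair of microtubules, was the steadiest of all 34 genes, with 582 to 725 CPM over the 7 libraries and a coefficient of variation of 8.15%.

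Within the batches the genotypes gave the same sign for 14 of the 34 genes and opposite signs for the rest. Among all 19400 genes tested, 9393 had the same sign in both batches. In a model with an interaction of genotype and batch, 0 of the 34 genes passed an unadjusted p of 0.05, where 2.08% of all genes did (0.0103% after adjustment). The smallest was that of *Spata19* (unadjusted p = 0.125 from limma), whose log2 fold change was 0.24 in batch 1 and -0.30 in batch 2.

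No call was made for genes of the same structures outside the 34. Of 26 other tail genes tested, 0 passed an unadjusted p of 0.05 in either direction, where 2.58% of all genes did, and the median log2 fold change was -0.048. With so few genes, 0 is close to that share, here and in the lists that follow. The same count of 0 held for the 12 entries of 11 glycolysis genes (*Aldoa* has 2), among them the enzymes bound to the fibrous sheath (median 0.038), the 6 subunits of protein kinase A, which AKAPs anchor (0.046), and the 10 genes tested among other septins and *Vdac1* (0.058). For the late spermatid genes, *Prm1* had 0.096, *Prm2* 0.070, *Tnp1* -0.15 and *Tnp2* -0.0092.

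Cell type markers were compared in the same way, and none passed the adjusted p. The summed markers of elongating spermatids were 7665 to 10470 CPM in control and 6945 to 12090 CPM in mutant testes, and those of spermatocytes 1626 to 2537 and 1211 to 2793 CPM. Round spermatid markers were at 2420 to 2768 and 2292 to 2910 CPM, and Sertoli cell markers at 467 to 757 and 478 to 848 CPM. Summed Leydig cell markers were at 413 to 569 and 364 to 722 CPM, and spermatogonial markers at 82.0 to 90.9 and 73.0 to 121 CPM. Endothelial markers were at 32.7 to 44.8 and 31.1 to 53.9 CPM. Each range of the mutants overlapped that of the controls. At an unadjusted p under 0.05 with an adjusted p of 1.00 from limma stood *Ccnd2* (log2 fold change 0.74) and *Stra8* (-0.55) of spermatogonia, *Rhox5* (-0.55) of Sertoli cells, *Hsd3b6* (-1.27) and *Star* (-0.33) of Leydig cells and *Pecam1* (0.72) of endothelium. Of all genes, 2.58% were under that unadjusted p. The lists themselves were divided, with 4 of 7 Leydig cell markers above 0 and a median of 0.011. Above 0 were also 4 of 8 spermatogonial, 5 of 11 Sertoli cell and 3 of 5 endothelial markers tested.

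Tail genes did differ between the batches of the labels, in both directions. In batch 2 minus batch 1, 9 of the 34 genes passed an adjusted p of 0.05, where 7.06% of all genes did. Of these, 6 were lower in batch 2 (3.6% of all genes) and 3 higher (3.46%). At an unadjusted p under 0.05 there were 17 of 34, where 24.8% of all genes were. Most of the 34 genes are abundant, while these shares include genes with few reads. With the fit limited to the 11996 genes with a mean above 5 CPM, 638 genes were lower and 603 higher at the adjusted p. Of the 34 genes, 6 were lower and 1 higher there. At the unadjusted p there were 3676 of the 11996 genes and 14 of the 34. For 13 of the 34 genes the batches did not overlap (23.6% of all genes), of which 11 were lower (12.1% of all genes) and 2 higher (11.6%) in batch 2. On CPM that were not scaled, 10 genes were lower and 0 higher, while all genes moved from 698 lower and 672 higher to 2101 lower and 215 higher and the median of all genes from -0.018 to -0.24.

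**Figure D3:**
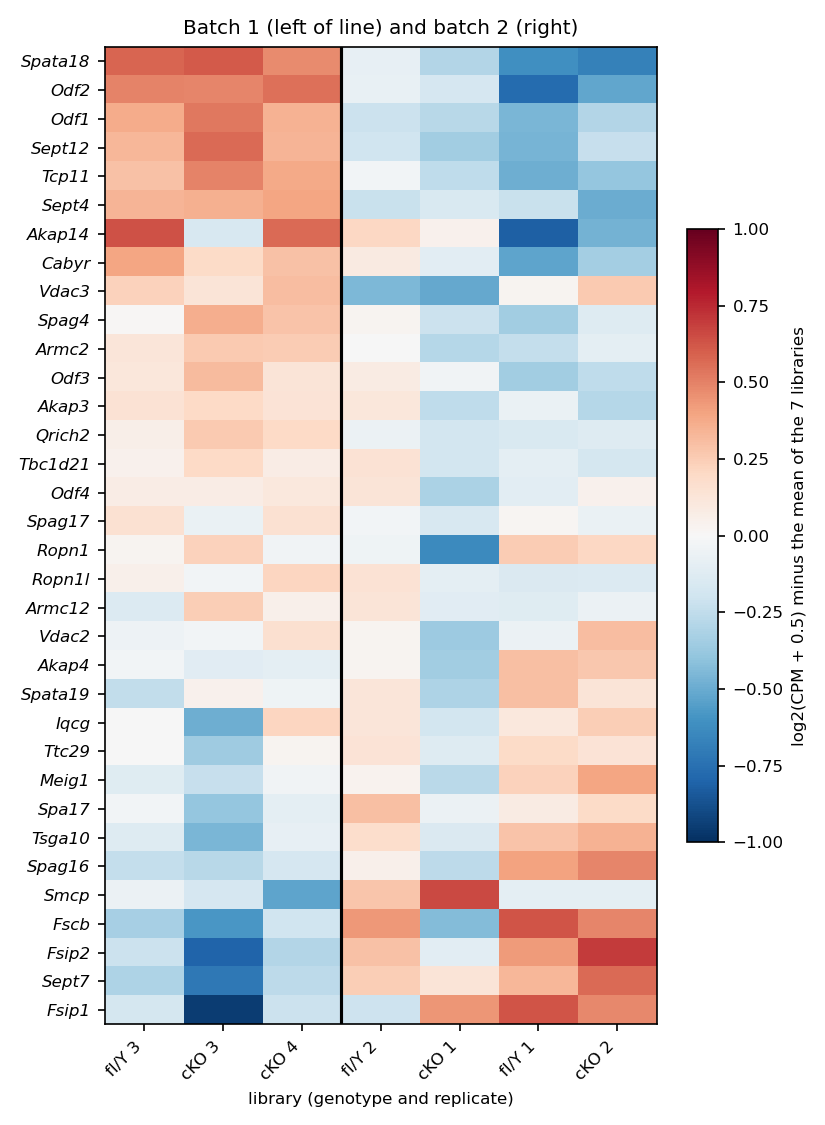
Deviation of each gene in each library from its mean over the 7 libraries, on the log2(CPM + 0.5) scale (red higher, blue lower), with genes ordered by the difference between the batches and batch 1 left of the line. *Spata18* to *Sept4* at the top are red in batch 1 and blue or near white in batch 2, and *Fscb* to *Fsip1* at the bottom show mostly the opposite.

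Of the 6 genes called lower in batch 2, 3 belong to the midpiece and annulus, 2 to the outer dense fibres and 1 to assembly. *Spata18*, on chr5:73651379-73679512, was at 233, 337, 290 and 223 CPM in control replicates 1 and 2 and mutant replicates 1 and 2 of batch 2, and at 534, 544 and 494 CPM in control replicate 3 and mutant replicates 3 and 4 of batch 1. Every library of batch 1 was above every library of batch 2, with a log2 difference of -0.99 (standard error 0.16, adjusted p = 0.0045 from limma). In the same order of libraries, *Odf2*, on chr2:29889221-29931746, was at 1419, 2307, 2156 and 1688 CPM in batch 2 and at 3413, 3407 and 3549 CPM in batch 1. The batch 1 libraries lay close together and the batch 2 libraries well below them, with a log2 difference of -0.89 (standard error 0.20, adjusted p = 0.018 from limma). *Odf1*, on chr15:38219203-38226735, was at 362, 428, 411 and 406 CPM in batch 2 and at 642, 717 and 632 CPM in batch 1 (log2 difference -0.71, adjusted p = 0.0106 from limma). The ratio of *Odf1* to *Odf2* stayed between 0.178 and 0.255 in all libraries, with no gap between the batches. The summed outer dense fibre genes were at 2051 to 3077 CPM in batch 2 and 4393 to 4549 CPM in batch 1, and all 5 had a log2 difference below 0.

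Septins of the annulus differed in opposite directions. *Sept12*, a testis septin, was at 99.1, 119, 108 and 117 CPM in batch 2 and at 173, 202 and 173 CPM in batch 1, and *Sept4* at 47.2, 47.2, 49.6 and 39.1 CPM in batch 2 and at 70.0, 70.9 and 72.6 CPM in batch 1. Both were lower in each library of batch 2, and their log2 differences were -0.71 and -0.64 (adjusted p = 0.0109 and 0.0217 from limma). *Sept7*, the septin that many tissues share, was instead at 74.0, 69.5, 64.2 and 87.1 CPM in batch 2 and at 47.2, 35.6 and 48.9 CPM in batch 1, with 0.74 (adjusted p = 0.0202 from limma). None of the 3 overlapped between the batches. *Tcp11*, a testis gene of sperm motility, was at 858, 1178, 1007 and 917 CPM in batch 2 and at 1472, 1698 and 1560 CPM in batch 1, with -0.68 (adjusted p = 0.026 from limma), and 12.4% of its 35-base words are shared with AC132460.1 and other genes.

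**Figure D4:**
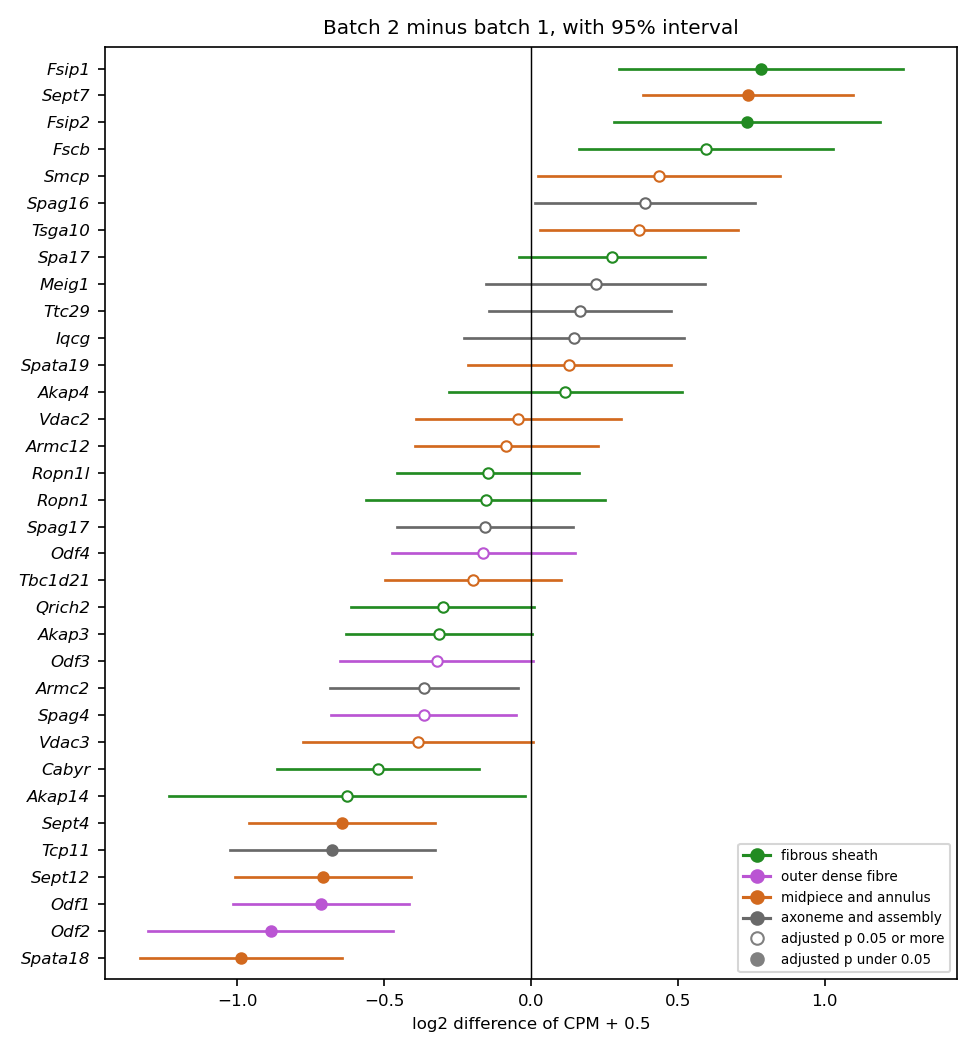
Log2 difference between the batches (batch 2 minus batch 1, horizontal axis) of the 34 genes with its 95% interval from limma, coloured by place in the tail, with filled points for an adjusted p under 0.05. The filled points are 6 genes from *Spata18* (-0.99) to *Sept4* (-0.64) on the lower side and *Fsip2* (0.74), *Sept7* (0.74) and *Fsip1* (0.78) on the higher side.

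Within the fibrous sheath, only *Fsip1* and *Fsip2* passed the adjusted p in this comparison, and both only just. *Fsip2*, on chr2:82943634-83008937, was at 3134, 2859, 2173 and 3809 CPM in batch 2 and at 2012, 1344 and 1911 CPM in batch 1, with a log2 difference of 0.74 (standard error 0.21, adjusted p = 0.0498 from limma). *Fsip1*, on chr2:118204888-118256966, was at 82.2, 45.6, 72.0 and 74.1 CPM in batch 2 and at 46.7, 27.1 and 45.5 CPM in batch 1, with 0.78 (adjusted p = 0.0496 from limma). The batches overlapped for *Fsip1* and not for *Fsip2*. The ratio of *Odf2* to *Fsip2*, a pair chosen after the values were seen, was 1.70, 2.53 and 1.86 in batch 1 and 0.453, 0.807, 0.992 and 0.443 in batch 2. *Akap4* was at 2015 to 2135 CPM in batch 1, within its 1709 to 2685 CPM in batch 2 (log2 difference 0.12), while *Akap3* was lower in every library of batch 2 than in batch 1, with -0.31 (adjusted p = 0.207 from limma). *Fscb* had 0.60 and *Cabyr* -0.52, and neither passed (adjusted p = 0.0856 and 0.0629 from limma).

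These calls, like those of all genes, depended on single libraries. Without control replicate 3, the one control of batch 1, 0 of the 34 genes were called, where 24 of all 18870 genes tested were lower and 27 higher. Without mutant replicate 3 only *Spata18* was called (74 lower and 60 higher of 19017 genes). Without mutant replicate 1 there were 7 lower and 5 higher (1575 and 1449 of 19054 genes). Without control replicate 1 there were 3 lower and 0 higher (250 and 175 of 19039 genes). Without mutant replicate 2 there were 4 and 0 (381 and 273 of 19085 genes), and without mutant replicate 4 there were 3 and 1 (221 and 236 of 18951 genes). A fit without a trend in the variance called 0 of the 34, where 71 of all 19400 genes were lower and 51 higher. In 18 other settings, *Spata18* was called in 16, *Odf1* and *Sept12* in 15, *Odf2* in 13, *Sept4*, *Sept7* and *Tcp11* in 12, *Fsip1* in 7 and *Fsip2* in 6. None of these 9 genes changed sign in any of them, and the adjusted p from limma or the other tools went from 6.5e-06 to 0.0878 for *Spata18* and from 0.0041 to 0.314 for *Fsip2*.

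Some germ cell markers differed between the batches at the adjusted p, where 3.6% of all genes were lower and 3.46% higher in batch 2. With so few genes in a list, a count of 0 or 1 does not set it apart from these shares. Of 10 spermatocyte markers 5 were higher and 0 lower in batch 2, with summed levels of 1211 to 1626 CPM in batch 1 and 2035 to 2793 CPM in batch 2. Of 10 elongating spermatid markers 3 were lower and 0 higher, with 10410 to 12090 CPM in batch 1 and 6945 to 8366 CPM in batch 2. Round spermatid markers summed to 2768 to 2910 and 2292 to 2637 CPM, and 0 of 12 passed, and 0 of 8 spermatogonial markers tested did. No gene of these 3 lists was at 0 in all libraries. Markers of somatic cells passed for *Insl3* of Leydig cells (log2 difference -4.01), *Actg2* (-0.70) and *Tagln* (2.02) of peritubular cells and *Vwf* of endothelium (-0.91), named after their values were seen. *Prm2* had a log2 difference of -1.12 and *Tnp2* of -0.89 (adjusted p = 0.0134 and 0.0187 from limma), against -0.50 for *Prm1* and 0.077 for *Tnp1*, which did not pass. Of 26 other tail genes tested, 3 were lower and 1 higher in batch 2, of 12 glycolysis entries 3 were lower and 0 higher (*Aldoart2* -1.12, *Hk1* -0.79 and *Gpi1* -0.78), of 6 protein kinase A subunits 1 was higher, and of the 10 other septins and *Vdac1* tested 0 passed. The called tail genes, named like those of glycolysis after their values were seen, were *Odf3b*, a relative of *Odf3* (-1.61), *Klc3*, a kinesin light chain of the midpiece (-0.89), *Cfap65* (-0.79) and *Odf2l*, a relative of *Odf2* (0.68), and the subunit was *Prkar1a* (0.60). Mitochondrial RNA moved with the batches as given above. The part of these markers and of mitochondrial RNA in the difference of the tail genes was not tested.

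**Figure D5:**
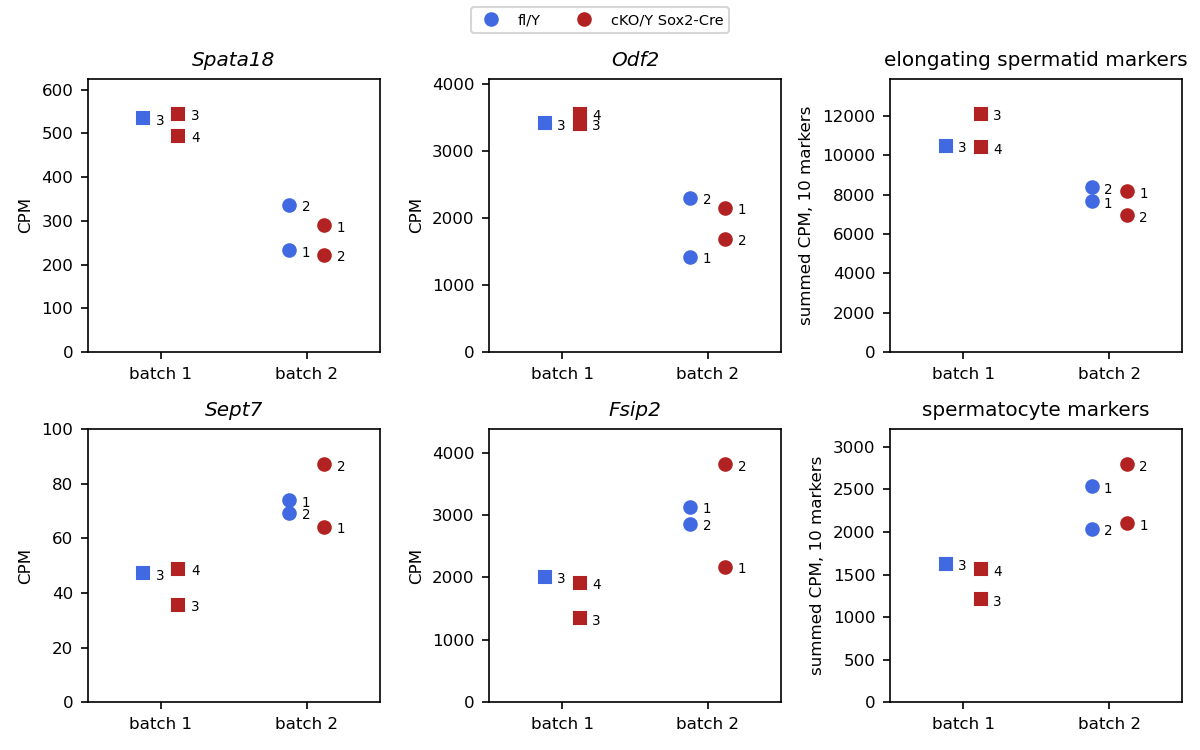
CPM (vertical axes, from 0) of *Spata18*, *Odf2*, *Sept7* and *Fsip2* and summed CPM of 10 elongating spermatid and 10 spermatocyte markers in each library, by batch, with fl/Y in blue, cKO/Y Sox2-Cre in red and the replicate number beside each point. *Spata18*, *Odf2* and the elongating spermatid markers are higher in all 3 libraries of batch 1, and *Sept7*, *Fsip2* and the spermatocyte markers in all 4 of batch 2.

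For some genes the reads may not be theirs alone. Of the 35-base words of *Iqcg*, an axonemal gene, 47.5% also occur in transcripts of other genes, mainly *Lrch3*, which overlaps 48.1% of its exon bases on the other strand. For *Spa17* this was 29.8%, mainly with *Siae* on the other strand, for *Spag17* 14.2% with *Wdr3*, for *Vdac3* 14.0% with a pseudogene, *Vdac3-ps1*, and for *Vdac2* 6.43% with Gm7832. Whether reads were counted by strand was not stated, so the values of these genes and of *Tcp11* are uncertain to that extent. The other 28 genes had 5% or less of such words.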

How the data were processed

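Per the labels, the authors used HISAT2 2.1.0, featureCounts and edgeR with build GRCm38, whereas the study's methods name TopHat and HTSeq for paired 35-base reads, and which of them made the table is not known. The deposited signal is in CPM, which the authors computed on scaled library sizes, in 1 column per library. Values were whole multiples of 1 read in 100% of entries to within 0.01 of a read, cKO/Y Sox2-Cre replicate 4 included, where 1 read was close to 0.1 CPM, and the recovered reads served only the alternatives with count models. Genes above 1 CPM in at least 3 of 7 libraries (19400 genes, all 34 members among them) were fitted on log2(CPM + 0.5) in limma 3.58.1 (R 4.3.3) with a variance trend, genotype and batch. Fold changes are on this scale, which understates those of low genes. P-values are two-sided and adjusted by Benjamini-Hochberg over all genes tested, with a limit of 0.05. No test was run over a list.

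Named were all 34 members, *Rlim*, *Prm1*, *Prm2*, *Tnp1*, *Tnp2* and up to 4 genes per other list with the smallest unadjusted p under 0.05 for genotype. Other genes named for their batch difference were chosen after their values were seen. The members, lists, tests and rules were chosen with earlier results of these data known. Alternatives were a replicate block, leaving out each library, either batch by itself, a model without batch, other filters, pseudocounts, scalings and variance priors, and edgeR 4.0.16 and DESeq2 1.42.0. Leaving out mitochondrial genes and the ribosomal RNA gene CT010467.1 and, for the batch comparison, leaving out libraries, the fit without a trend, the likelihood ratio test and DESeq2 were chosen after seeing the data. Gene coordinates are those of the deposited table (GRCm38), and for 28 of the 34 genes GENCODE M21 has the same start and end. Exon lengths and 35-base words came from GENCODE M21 transcripts, handled in Python 3.11.15.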

Additional observations from a re-analysis of the deposited data

Results flagged for a closer look

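*Spag16*, a gene of the central apparatus of the axoneme, reached 236 CPM in replicate 2 of cKO/Y Sox2-Cre, far from the 138.9 to 149.4 CPM of the other 3 cKO/Y Sox2-Cre libraries. Its gap to the nearest of them was 0.892 of the range of the group, above the 95% limit of Dixon's test for 4 samples. In fl/Y the gene was at 223, 174 and 143 CPM, so that 2 of the 7 libraries were above 200 CPM, both of them of batch 2. Of 39 sets of 4 values examined in this way, 1 stood out, where chance gives about 1 in 20. The sets were not independent, since all came from the same 4 libraries and some were sums over the tail genes. These libraries span 2 batches, which Dixon's test does not take into account.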

How the results depend on the processing

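No tail gene was called between the genotypes in any of 22 other settings, and the median log2 fold change of the 34 genes lay between -0.10 and 0.015. The sign of 0 to 11 genes changed in a setting, most without cKO/Y Sox2-Cre replicate 1. The depth limits *Akap14* most, with 28 reads in its shallowest library, and with 3 and 4 libraries the data do not separate small differences from the spread. No cause of the shifts given here was tested.

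For genotype over all genes, 0 genes were lower without a batch term, without a variance trend and in batch 2 alone, 3 lower and 7 higher by the likelihood ratio test, and 10 lower and 8 higher in batch 1 alone. *Rlim* was not called without a batch term (-1.47), without a variance trend (-1.38) or in batch 2 alone (-1.29). Leaving out each library gave 0 to 3 genes lower, 0 to 1 higher, 0 to 1 tail genes at an unadjusted p under 0.05 and -1.52 to -1.28 for *Rlim*. Whether replicate numbers pair the libraries cannot be told from their deviations, which were taken from the genotype mean and so carry the batch difference. Same-numbered libraries correlated at 0.173, 0.0974 and 0.596. The closest to fl/Y replicate 1 was cKO/Y Sox2-Cre replicate 2 (0.652), while fl/Y replicates 2 and 3 were closest to the same-numbered library. With a replicate block, without cKO/Y Sox2-Cre replicate 4, 0 genes were called, 0 of the 34 genes among them, and *Rlim* had -1.35 (adjusted p = 0.26 from limma).

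For batch, 1 tail gene was higher with a pseudocount of 0.1 CPM (553 of 19400 genes) and with a mean above 5 CPM (603 of 11996 genes). Unscaled CPM gave 2101 genes lower and 215 higher, 10 and 0 tail genes, and a median of the 34 genes of -0.40. Without a variance trend there were 71 and 51 genes, 0 and 0 tail genes, and 10 tail genes at an unadjusted p under 0.05. The likelihood ratio test gave 1152 and 1125 genes. Leaving out each library gave 24 to 1575 genes lower and 27 to 1449 higher, 0 to 7 and 0 to 5 tail genes, and 11 to 19 at an unadjusted p under 0.05. Of the values of single tail genes and of the median of all genes, 28 of genotype and 30 of batch without a call moved. The limit was 1 standard error for a gene. For the median of all genes it was the spread between libraries of the median of the 34 genes (SD 0.094). In the batch comparison, 54 values of tail genes lost their call and 13 gained one.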
